A study of Mus musculus with 12 samples.

Results

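The 48 genes described here encode the machinery that copies DNA and part of the enzymes that supply its building blocks. They were chosen by name from the 55335 genes of the count table, as genes of helicase loading and activation, the sliding clamp and its loader, the replicative polymerases, single-strand binding, Okazaki fragment maturation, deoxynucleotide supply, chromatin assembly behind the fork, fork protection and control of licensing. Earlier results of these data were known when the members were chosen. Their shares set beside those of all genes are therefore a description and not an independent test. All 48 were found in the table and all 48 passed the filter on low counts, which left 15702 genes tested. The RNA came from CD8 T cells of the spleen of OT-I mice, a C57BL/6 strain with a transgenic T-cell receptor. The cells carried either a control vector without insert or a vector expressing Batf3, a transcription factor of the AP-1 family, and were sorted for transduced cells. Both kinds were then cultured for 6 h. The non-stimulated cultures are labelled with IL-15 at 100 ng/ml and the stimulated ones with antibodies to CD3 and CD28 at 1 µg/ml each. IL-15 is named for the non-stimulated cultures only, so the effect of stimulation and that of IL-15 cannot be told apart. The 4 groups held 3 libraries each, described by the submitters as technical replicates. SDs, standard errors and p-values therefore measure the spread between such libraries and not between mice or transductions. How many mice and transductions the cells came from is not given. The promoter that drives Batf3, and how long before the culture the cells were activated and transduced, are not stated in the labels.

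Replication starts at origins bound by the origin recognition complex (ORC). With Cdc6 and Cdt1, ORC loads the MCM2-7 ring in G1 phase, and in S phase Cdc45 and the GINS complex join the ring to form the active helicase. Polymerase alpha and primase lay down primers, replication factor C (RFC) loads the PCNA clamp, and polymerases delta and epsilon extend the strands while replication protein A (RPA) covers single-stranded DNA. Ribonucleotide reductase and thymidylate synthase provide deoxynucleotides (dNTPs). Most of these genes are known targets of E2F transcription factors, are transcribed most strongly around the start of S phase, and are low in lymphocytes at rest.

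The libraries held 14211564 to 14468231 counted reads. Levels are given as CPM, counts scaled to a common library total, with TMM scaling, an edgeR method that corrects for a few genes taking a large share of the reads, and are therefore relative to the other genes of the same library. Batf3 itself stood at 6.77 ± 0.833 CPM (SD, n = 3) in non-stimulated control cells and at 470.4 ± 3.68 CPM with the Batf3 vector. In stimulated cells the values were 18.4 ± 0.735 and 427 ± 11.9 CPM, so the libraries matched their vector labels. Replicate 3 of stimulated Batf3 cells stood apart from the other two of its group: the chi-square of their counts per gene, which is near 1 for counting noise alone, was 3.17 and 2.62 in its pairs, against 1.46 to 2.16 in the other 10 pairs within groups. Without it 41 members were higher and 1 (Pold2) lower with Batf3 under stimulation, and the interaction was called in 39. The 8 CD8 T-cell markers summed to 2846 to 2896 CPM in non-stimulated control, 2737 to 2748 in non-stimulated Batf3, 1914 to 1949 in stimulated Batf3 and 1684 to 1693 in stimulated control libraries, which is the order that the replication genes took in sum. Of these 8 markers 7 fell on stimulation with either vector, 4 fell and 1 rose with Batf3 without stimulation, and 7 rose with Batf3 under stimulation. Of all tested genes 40.7% fell on stimulation with the control vector and 41.4% with the Batf3 vector. With Batf3, 23% of all tested genes fell and 16.3% rose without stimulation, and 14.8% rose under it. Of the 2 CD4 T-cell markers, Cd4 stayed at a mean of 0.321 CPM or less in every group, and Zbtb7b, a transcription factor of that lineage, stood at 13.996, 22.9, 8.89 and 9.14 CPM (control and Batf3 non-stimulated, control and Batf3 stimulated), rising by 0.71 with Batf3 without stimulation (adjusted p = 1.16e-09). The 5 dendritic-cell markers summed to 15.9 to 23.0 CPM, nearly all from Zbtb46 and Xcr1, while Siglech was at 0. Of the 6 B-cell markers, Ighm stood at 361, 396, 50.6 and 38.4 CPM in the same order of groups, while Pax5 stayed under 0.2 CPM and Ms4a1 was at 0. Of the 3 NK-cell markers Nkg7, which CD8 T cells also express, made up nearly all of the summed 320.2 to 911 CPM and Ncr1 was at 0. The macrophage, granulocyte and red-cell lists each summed to under 6 CPM in every library. Whether any of these shifts touched the replication genes was not tested. In bulk RNA, fewer cells with a transcript and less of it per cell cannot be told apart.

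As examples of the members' sequences, the promoters of 8 of them are printed. These are the 4 members with a promoter in the table that fell most, and the 4 that rose, with the Batf3 vector in non-stimulated cells. The sequences come from RefSeq (GRCm38.p6), run from 150 bases before to 30 bases after the annotated start, and read 5′ to 3′ on the gene's strand. Capitals mark any of the E2F words TTTCCCGC, TTTCGCGC, TTTGCCGC and TTTGGCGC or the word TTTGAA, the core of the cell-cycle homology region (CHR) known from mitotic genes, each searched on both strands. In the Mcm6 sequence 2 E2F words overlap in one run of capitals, and its RefSeq start lies upstream of its GENCODE gene model.
Mcm2 promoter, chr6:88898751-88898930, reverse strand: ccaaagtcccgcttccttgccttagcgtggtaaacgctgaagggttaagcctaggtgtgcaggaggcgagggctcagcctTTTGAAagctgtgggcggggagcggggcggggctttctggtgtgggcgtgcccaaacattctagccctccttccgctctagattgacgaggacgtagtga
Rfc3 promoter, chr5:151651179-151651358, reverse strand: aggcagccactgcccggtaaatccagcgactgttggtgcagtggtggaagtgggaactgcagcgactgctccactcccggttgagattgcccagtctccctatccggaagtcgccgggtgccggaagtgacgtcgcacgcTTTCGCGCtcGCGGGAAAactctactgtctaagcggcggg
Orc1 promoter, chr4:108579304-108579483, forward strand: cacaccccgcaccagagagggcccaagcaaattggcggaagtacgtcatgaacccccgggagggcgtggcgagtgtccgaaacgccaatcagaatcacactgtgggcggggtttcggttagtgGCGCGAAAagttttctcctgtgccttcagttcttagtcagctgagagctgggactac
Mcm6 promoter, chr1:128359676-128359855, reverse strand: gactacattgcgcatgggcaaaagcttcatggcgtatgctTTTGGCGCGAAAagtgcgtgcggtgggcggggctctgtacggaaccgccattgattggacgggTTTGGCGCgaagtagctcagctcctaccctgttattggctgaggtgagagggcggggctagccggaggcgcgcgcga
Asf1b promoter, chr8:83955544-83955723, forward strand: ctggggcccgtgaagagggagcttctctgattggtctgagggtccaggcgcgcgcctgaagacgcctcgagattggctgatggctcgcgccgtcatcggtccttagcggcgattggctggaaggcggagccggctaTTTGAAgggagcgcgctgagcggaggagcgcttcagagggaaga
Rrm2 promoter, chr12:24708104-24708283, forward strand: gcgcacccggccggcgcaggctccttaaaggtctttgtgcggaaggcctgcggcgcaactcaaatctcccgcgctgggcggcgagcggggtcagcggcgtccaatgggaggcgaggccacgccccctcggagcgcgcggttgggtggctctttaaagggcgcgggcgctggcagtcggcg
Clspn promoter, chr4:126556830-126557009, forward strand: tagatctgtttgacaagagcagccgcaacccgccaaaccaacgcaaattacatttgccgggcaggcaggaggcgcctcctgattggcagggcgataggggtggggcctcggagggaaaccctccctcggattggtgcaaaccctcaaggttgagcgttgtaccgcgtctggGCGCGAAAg
Cdc45 promoter, chr16:18811943-18812122, reverse strand: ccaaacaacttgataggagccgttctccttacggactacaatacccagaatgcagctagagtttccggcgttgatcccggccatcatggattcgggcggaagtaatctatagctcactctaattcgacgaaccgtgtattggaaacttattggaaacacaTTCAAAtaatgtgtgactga

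Positions count from the start site, with -1 just before it and 1 as the first transcribed base. Rfc3 had E2F words at -10 to -3 and 1 to 8, Orc1 at -27 to -20, and Mcm6 at -110 to -103, -106 to -99 and -47 to -40. Clspn had an E2F word at 22 to 29. CHR words lay at -70 to -65 in Mcm2, at -14 to -9 in Asf1b and at 11 to 16 in Cdc45, and the Rrm2 window held neither word. RefSeq promoters were matched for 40 of the 48 members, with 45 promoters in all. Mcm4, Gins1, Gins2, Gins4, Rfc2, Prim2, Pole and Tipin were not among them. In the full window of 250 bases before to 50 after the start, an E2F word was present in 16 of the 45 member promoters (35.6%), against 2.26% of the 32851 promoters in the table. The CHR word was present in 13.3% of member promoters, against 17.9% of all promoters and 77.1% of the 35 promoters of a list of mitosis genes. The word CCAAT, searched as well but not marked, was present in 26 of the 45 member promoters (57.8%). It was present in 37.4% of all promoters and 80.0% of the mitosis promoters. Members with an E2F word included Cdc6, Cdt1, Mcm3, Mcm5, Mcm7, Gins3, Pola1, Pole2, Pold1, Pold3, Lig1 and Dtl. A match is a description of letters and says nothing of binding, and absence says only that these letters were not in the window.

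The 48 genes together were highest in non-stimulated control cells and lowest in stimulated control cells, with both Batf3 groups in between. Their summed level was 4217 to 4269 CPM in the non-stimulated control libraries and 3765 to 3859 CPM in the non-stimulated Batf3 libraries. After stimulation it was 1661 to 1683 CPM in control and 2214 to 2276 CPM in Batf3 libraries. The 4 groups did not overlap in this sum, although Mcm and other abundant genes weigh most in it. Group means ran in the order control non-stimulated, Batf3 non-stimulated, Batf3 stimulated, control stimulated in 34 of the 48 members. The share of all tested genes with this order was not counted. In 10 members (Cdc45, Gins3, Pole, Rpa1, Rrm1, Rrm2, Tyms, Tk1, Asf1b and Clspn) the Batf3 non-stimulated mean came first instead. Rfc1, Fen1, Orc1 and Pold2 had other orders.

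**Figure D1:**
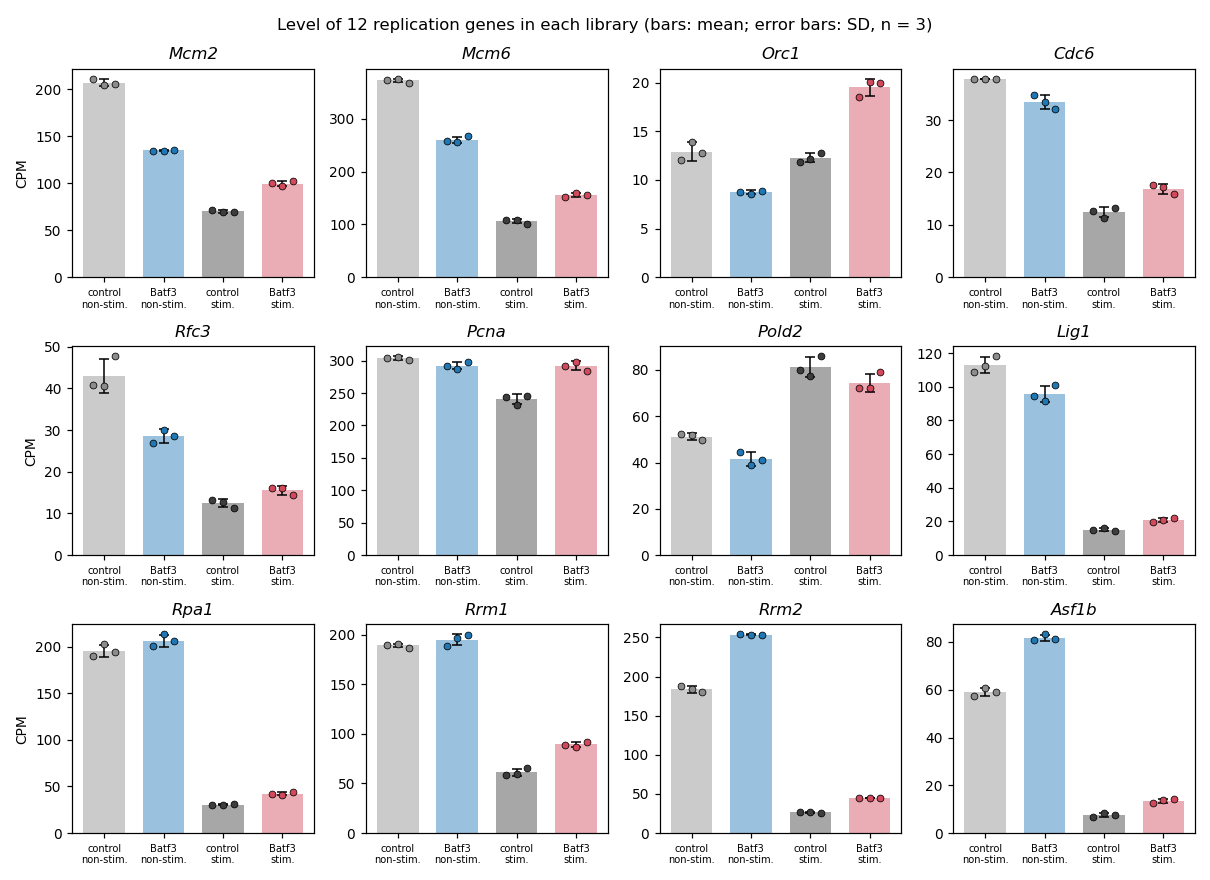
Level in CPM (linear axis from 0) of 12 replication genes in the 4 groups, with each library as a point, the mean as a bar and the SD (n = 3) as error bar. Most genes drop from the left to the right pair of bars, with Batf3 lower than control on the left for Mcm2 and Mcm6 and higher for Rrm2 and Asf1b, and Batf3 above control on the right for all but Pold2.

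Whether Batf3 alters replication genes without stimulation was asked by comparing the vectors in the non-stimulated cultures. With Batf3, 24 of the 48 members fell and 4 rose at an adjusted p under 0.05, and 20 were not called. Among all 15702 genes tested 23% fell and 16.3% rose. The members had a median log2 change of -0.15, against -0.024 for all tested genes. In helicase loading 9 of the 10 members fell, with a median of -0.34. In the other roles 15 of 38 members fell, and the 4 that rose were Cdc45, Rrm2, Asf1b and Clspn. Scaling moved these counts: with library sizes alone in place of TMM, 17 members fell and 8 rose, and over all genes the share of calls that were higher went from 41.5% to 60.1%. With DESeq2, 20 members fell, Cdc6, Gins1, Gins2 and Pola2 no longer passing.

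The same question in the stimulated cultures gave another picture. With Batf3, 41 of the 48 members rose and 0 fell, where 14.8% of all tested genes rose and 14.6% fell. The 0 comes from the quasi-likelihood test of edgeR, adjusted by the Benjamini-Hochberg method, as do all adjusted p-values here. At an unadjusted p under 0.05 the count of falls was 1, and with DESeq2 it was 0. The median change of the members was 0.46, against 0.0016 for all genes. All members of helicase loading, chromatin assembly and fork protection rose. The 7 that did not pass were Gins3, Rfc1, Prim2, Rpa3, Fen1, Tk1 and Pold2. With library sizes alone 42 members rose, while over all genes the higher share of calls went from 50.3% to 65.6%.

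Set side by side, 23 members fell with Batf3 without stimulation and rose with Batf3 under stimulation, a combination found in 1.6% of all tested genes (252 genes). Those members were Orc1, Cdc6, Cdt1, Mcm2 to Mcm7, Gins1, Gins2, Rfc2, Rfc3, Rfc5, Pola2, Pold1, Rpa2, Lig1, Dut, Chaf1b, Timeless, Tipin and Dtl. Another 4 rose in both cultures (6.99% of all genes did), 14 were not called without stimulation and rose with it, Pold2 fell without stimulation and was not called with it, and 6 were called in neither culture. For the patterns of these 14, of Pold2 and of these 6, the share of all genes was not counted. The comparisons use different libraries. Across the 48 members the effects in the 2 cultures had a Pearson r of 0.128, given as a description since genes in one library are not independent. The count of 23 was 16 with library sizes alone, 19 with DESeq2, and between 19 and 24 when single libraries were left out, lowest without replicate 2 of non-stimulated Batf3 cells.

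**Figure D2:**
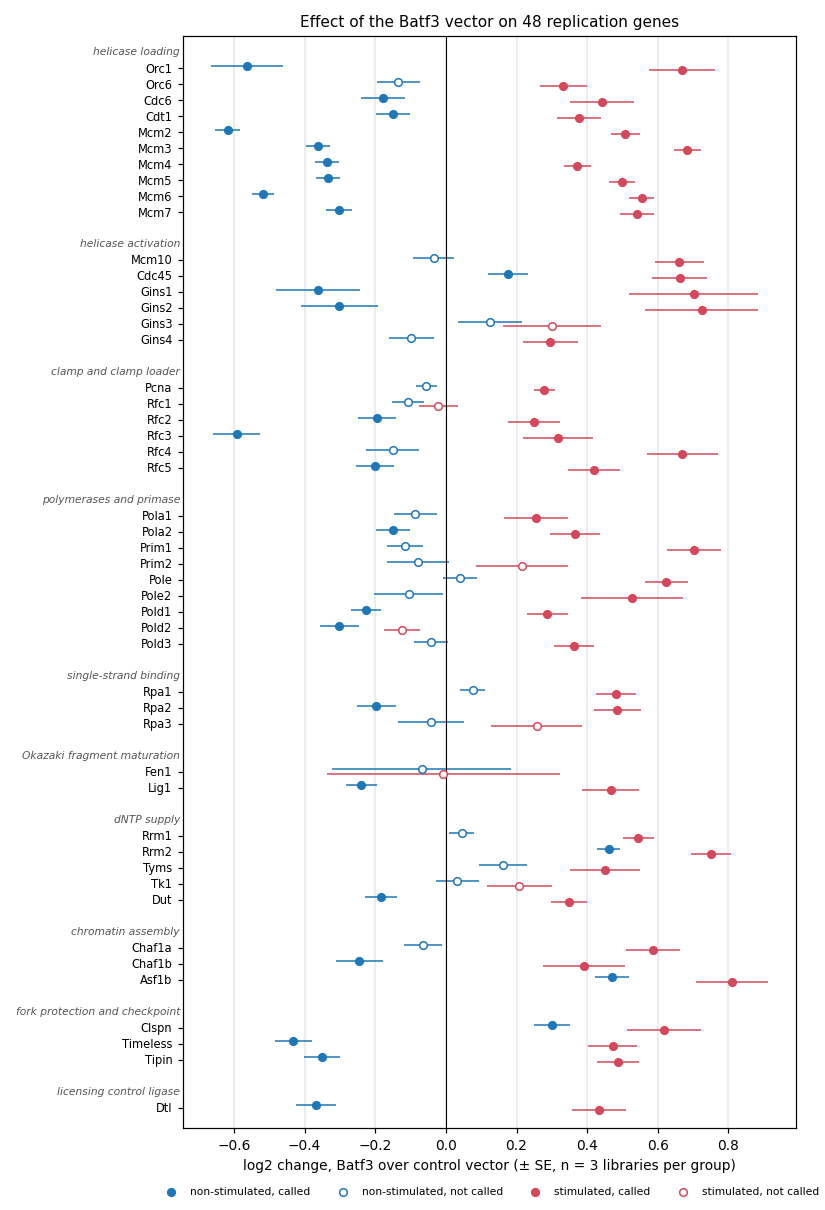
log2 change (Batf3 over control vector, ± SE, n = 3 libraries per group) of the 48 genes by role, in non-stimulated (blue) and stimulated (red) cells, filled where the adjusted p was under 0.05. The 10 helicase loading genes lie left of 0 in blue, 9 of them filled, and right of 0 in red, while Cdc45, Rrm2, Asf1b and Clspn lie right of 0 in both.

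Most of the genes were lower in the stimulated than in the non-stimulated cultures. Stimulation here means the whole change of culture, with the antibodies added and IL-15 no longer named. In control-vector cells 46 of the 48 members fell, 36 of them at least 2-fold, and Pold2 rose. Of all tested genes 40.7% fell, 24.1% at least 2-fold, and 39.6% rose. In Batf3 cells 43 members fell, 19 at least 2-fold, Orc1 and Pold2 rose, and Orc6, Pcna and Tipin were not called. There 41.4% of all genes fell, 24.4% at least 2-fold, and 41.2% rose. Median member changes were -1.49 in control and -0.83 in Batf3 cells, while the medians of all genes were -0.0083 and 0.011. With library sizes alone, the medians of all genes moved by -0.19 and -0.21 and those of the members were -1.68 and -1.04, so the members were lower relative to all genes under either scaling.

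**Figure D3:**
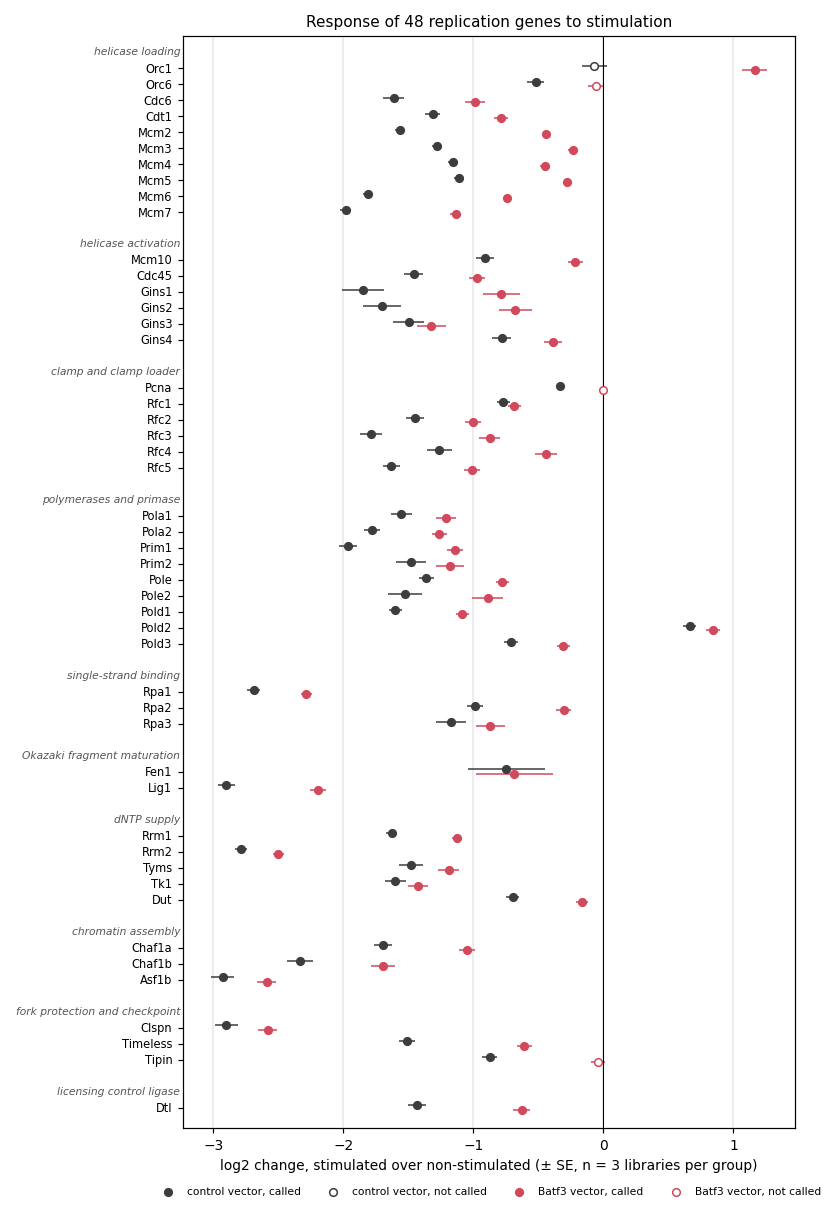
log2 change (stimulated over non-stimulated, ± SE, n = 3 libraries per group) of the 48 genes by role in control-vector (black) and Batf3-vector (red) cells, filled where the adjusted p was under 0.05. Nearly all points lie left of 0, Asf1b, Clspn, Lig1, Rrm2 and Rpa1 farthest, and the red point lies right of the black one in every row.

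How far the Batf3 effect differed between the cultures was tested by an interaction term, which equals the effect in stimulated minus that in non-stimulated cells and also the stimulation response with Batf3 minus that with control vector. It was called in 40 of the 48 members, all with values above 0, where 14.6% of all genes were called higher and 6.08% lower. Its median was 0.56 in the members and 0.054 in all genes. All 48 estimates were above 0, from 0.062 in Fen1 to 1.23 in Orc1. The 8 members not called were Gins3, Rfc1, Prim2, Rpa3, Fen1, Tk1, Tyms and Pold2. Pola1, Asf1b and Clspn were the only called members that lost the call under an alternative. Pola1 had 0.34 (adjusted p = 0.0171) in the main test. It had 0.25 to 0.30 and was not called without replicate 1 of non-stimulated control, replicate 1 or 3 of stimulated control or replicate 1 or 2 of stimulated Batf3 cells. Over all genes 70.6% of the calls were higher, 62.5% with library sizes alone and 57.9% with no filter. The share was 60.2% to 61.9% when a stimulated library other than replicate 3 of Batf3 was left out.

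In helicase loading, Orc1 is the largest subunit of ORC and one of its ATPases. It stood at 12.02, 13.9 and 12.7 CPM in the non-stimulated control libraries and at 8.73, 8.52 and 8.91 CPM with Batf3. Under stimulation the control libraries held 11.9, 12.2 and 12.8 CPM and the Batf3 libraries 18.5, 20.1 and 19.99 CPM. Batf3 libraries were thus the low ones in one culture and the high ones in the other, without overlap in either. Orc1 fell by 0.56 ± 0.10 on the log2 scale (± SE throughout; adjusted p = 5.35e-06) without stimulation and rose by 0.67 ± 0.094 with it (adjusted p = 2.54e-08). Its response to stimulation was 1.16 ± 0.098 in Batf3 cells (adjusted p = 3.56e-17). In control cells it was -0.069 ± 0.098 (adjusted p = 0.519), and -0.26 (adjusted p = 0.0159) with library sizes alone. The interaction of 1.23 ± 0.14 (adjusted p = 1.01e-10) was the largest of the 48. An antisense transcript, Gm12743, overlaps 10.8% of the Orc1 exons. Orc6, a small ORC subunit, had a Batf3 effect of -0.13 (adjusted p = 0.0694) without stimulation and rose by 0.33 with it (adjusted p = 6.32e-05). The Orc6 call without stimulation was reached without replicate 1 of the non-stimulated control cells (-0.18, adjusted p = 0.0297).

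Cdc6 and Cdt1 are the loading factors that bring the MCM ring to ORC. Cdc6 held 37.9, 37.9 and 37.8 CPM in non-stimulated control and 34.7, 33.5 and 32.0 CPM in non-stimulated Batf3 libraries. Its stimulated values were 12.6, 11.4 and 13.2 CPM with control and 17.6, 17.1 and 15.9 CPM with Batf3. The 4 groups did not overlap. With Batf3, Cdc6 fell by 0.18 ± 0.063 (adjusted p = 0.018) without stimulation, and rose by 0.44 ± 0.091 (adjusted p = 6.92e-05) with it. The fall was lost without replicate 1 or 3 of stimulated control cells (both -0.15, adjusted p = 0.0523 and 0.0508) and without replicate 3 of non-stimulated Batf3 cells (-0.15, adjusted p = 0.0931). Stimulated libraries are not contrasted here but share the scaling, filter and estimate of spread. Without replicate 1 or 3 of stimulated control, the median of all genes moved too, from -0.024 to 0.0044 and 0.0046. Stimulation lowered Cdc6 by more, to a log2 change of -1.61 ± 0.081 in control and -0.99 ± 0.075 in Batf3 cells (adjusted p = 4.07e-28 and 3.69e-19). Cdt1 changed like it, falling by 0.15 and rising by 0.38 with Batf3 (adjusted p = 0.0103 and 1.49e-06). Its fall was lost without replicate 1 of non-stimulated control (-0.12, adjusted p = 0.0770) or replicate 2 of non-stimulated Batf3 cells (-0.10, adjusted p = 0.139), and both falls were lost with library sizes alone (-0.10 for Cdc6 and -0.074 for Cdt1, adjusted p = 0.193 and 0.236).

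The 6 MCM subunits form the ring of the replicative helicase. Mcm2 (chr6:88883474-88898780, reverse strand) stood at 211, 204 and 205 CPM in non-stimulated control libraries and at 134, 135 and 136 CPM with Batf3. In stimulated cells it held 71.3, 69.2 and 69.5 CPM with control and 100.1, 96.6 and 102 CPM with Batf3. No libraries overlapped between groups. Among the 48 genes Mcm2 had the lowest Batf3 effect without stimulation, where it was 34.9% lower (-0.62 ± 0.034, adjusted p = 2.19e-23). With stimulation it was 42.2% higher (0.51 ± 0.041, adjusted p = 3.38e-16). Stimulation changed it by -1.56 ± 0.039 in control but by only -0.44 ± 0.037 in Batf3 cells, a difference of 1.13 ± 0.054 (adjusted p = 8.82e-26).

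Mcm6 (chr1:128331590-128359664, reverse strand) had the next largest fall within the ring. Non-stimulated control libraries held 374, 376 and 369 CPM and Batf3 libraries 258, 257 and 267 CPM. The stimulated control libraries held 109, 108 and 101 CPM and the Batf3 ones 153, 159 and 156 CPM. Again the groups stood apart, with Batf3 between the control groups in both cultures. The Batf3 effects were -0.52 ± 0.030 and 0.55 ± 0.036 (adjusted p = 2.08e-22 and 1.79e-20), and the interaction was 1.07 ± 0.047 (adjusted p = 1.14e-27).

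Mcm3 gave 228, 235 and 215 CPM in non-stimulated control and 172, 179 and 177 CPM in non-stimulated Batf3 libraries. After stimulation it gave 93.0, 95.5 and 90.5 CPM with control and 148, 151 and 149 CPM with Batf3. Of the ring's subunits it had the largest rise with Batf3 under stimulation (0.68 ± 0.039, adjusted p = 4.3e-23), after a fall of 0.36 ± 0.034 without it (adjusted p = 6.34e-14). Mcm4 held 208, 201 and 204 CPM, and 161, 159 and 166 CPM with Batf3, without stimulation. With stimulation the Mcm4 values were 94.1, 89.7 and 91.1 CPM in control and 114, 120.3 and 122 CPM in Batf3 libraries. Its effects of -0.34 ± 0.034 and 0.37 ± 0.039 (adjusted p = 9.95e-13 and 5.26e-12) were nearly equal in size.

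Mcm5 followed the same course from a higher level. Its non-stimulated values were 277, 269.9 and 266 CPM with control and 225, 206 and 215 CPM with Batf3. Its stimulated values were 126, 120.0 and 131 CPM with control and 172, 178 and 183 CPM with Batf3. The Batf3 effects were -0.33 ± 0.033 and 0.50 ± 0.037 (adjusted p = 6.82e-13 and 1e-17). Mcm7 ran from 185, 192 and 187 CPM in control to 152, 148 and 157 CPM in Batf3 libraries without stimulation. With stimulation it ran from 49.1, 46.4 and 47.2 CPM in control to 66.9, 67.3 and 73.5 CPM in Batf3 libraries. Its response to stimulation was the largest of the ring, -1.98 ± 0.044 in control and -1.14 ± 0.041 in Batf3 cells (adjusted p = 1.45e-46 and 1.3e-34). Mcm7 reads are less certain, since a near-identical copy, Gm5487, matches 72.8% of its transcript at 97.7% identity.

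Levels of different genes can be compared only per length. Divided by the length of the longest protein-coding transcript, the MCM subunits were closest to equal without stimulation. The highest subunit exceeded the lowest 1.50-fold in non-stimulated control (Mcm6 over Mcm4) and 1.59-fold in non-stimulated Batf3 cells (Mcm5 over Mcm2). In stimulated cells the span was 2.31-fold with control and 2.25-fold with Batf3, both Mcm5 over Mcm7. The choice of length moved these values: with the merged exons of each gene, an alternative added after the data were seen, the spans were 2.69, 2.88, 3.13 and 3.11 and Mcm2 was the lowest in all 4 groups.

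**Figure D4:**
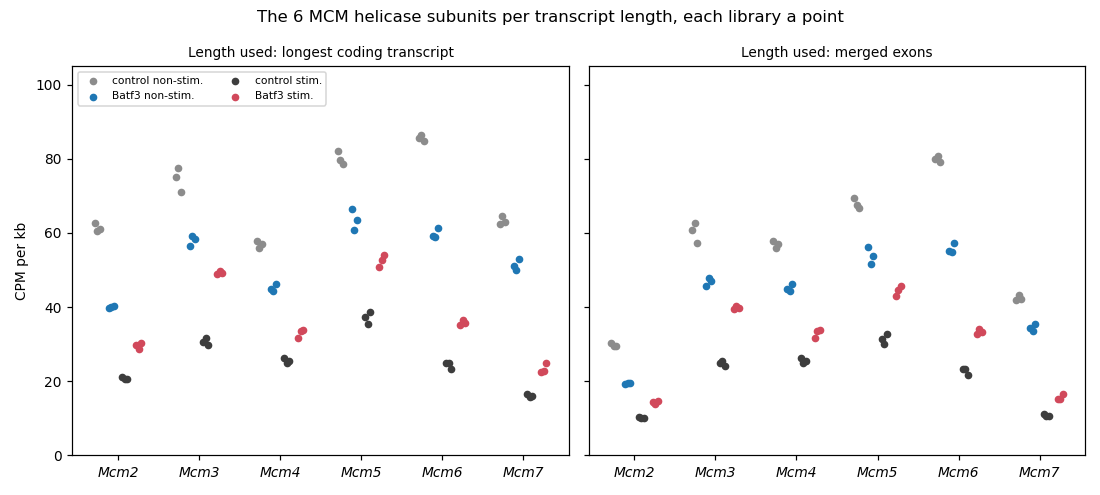
CPM per kb (linear axis from 0) of the 6 MCM subunits in each library (points, 3 per group), with the longest protein-coding transcript as length on the left and the merged exons on the right. Every subunit shows the same 4 levels from non-stimulated control down to stimulated control, and Mcm2 drops to the bottom on the right.

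Helicase activation behaved less evenly. Cdc45, which joins the ring with GINS, held 46.0, 47.8 and 50.2 CPM in non-stimulated control and 54.6, 58.3 and 49.9 CPM in Batf3 libraries. In stimulated cells it held 16.5, 17.3 and 18.5 CPM with control and 27.3, 27.2 and 28.3 CPM with Batf3. The groups overlapped without stimulation, through replicate 3 of each, and were apart with it. The rise of 0.18 ± 0.056 without stimulation (adjusted p = 0.00859) was lost without replicate 1 of control (0.14, adjusted p = 0.0681) and without replicate 2 of Batf3 cells (0.12, adjusted p = 0.128). The rise under stimulation was 0.66 ± 0.078 (adjusted p = 1.71e-10), or 58.3%.

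GINS is a complex of 4 subunits, and they did not move alike. Gins1 held 11.96, 13.8 and 12.2 CPM in non-stimulated control and 9.95, 8.65 and 10.9 CPM in Batf3 libraries. Stimulated values were 2.89, 4.42 and 3.20 CPM with control and 5.28, 4.45 and 7.38 CPM with Batf3, where the nearest libraries of the vectors almost touched. Gins1 fell by 0.36 ± 0.12 without stimulation (adjusted p = 0.0114) and rose by 0.70 ± 0.18 with it (adjusted p = 0.00168). The fall was lost without replicate 2 of non-stimulated control (-0.30, adjusted p = 0.0730) or of non-stimulated Batf3 cells (-0.28, adjusted p = 0.0910). The rise was lost without replicate 3 of stimulated Batf3 cells (0.47, adjusted p = 0.0637).

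Gins2 held 12.7, 12.9 and 12.4 CPM against 9.56, 9.48 and 11.8 CPM with Batf3 when not stimulated. When stimulated it held 4.57, 3.35 and 3.73 CPM against 5.80, 6.83 and 6.64 CPM. It fell by 0.30 ± 0.11 (adjusted p = 0.0213) and rose by 0.72 ± 0.16 (adjusted p = 0.000199). Without replicate 2 of non-stimulated control, or replicate 1 or 2 of non-stimulated Batf3 cells, the fall was lost (-0.29, -0.25 and -0.25, adjusted p = 0.0561, 0.102 and 0.110). Exons of Gse1 on the other strand overlap 67.3% of the Gins2 exons, and whether reads were counted by strand is not given in the sources used here. Gins4 rose by 0.30 under stimulation (adjusted p = 0.00224), and Gins3 was not called there (0.30 ± 0.14, adjusted p = 0.0982), although it was without replicate 3 of stimulated Batf3 cells (0.39, adjusted p = 0.0451). Mcm10, which helps to open the ring, had a non-stimulated Batf3 effect of -0.035 (adjusted p = 0.677) and rose by 0.66 under stimulation (adjusted p = 3.18e-12).

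Pcna, the sliding clamp, had the smallest response among the members that stimulation lowered in control cells. It stood at 304, 306 and 300.5 CPM in non-stimulated control and 291, 287 and 298 CPM in non-stimulated Batf3 libraries. Stimulated libraries held 244, 232 and 246 CPM with control and 292, 299 and 285 CPM with Batf3. Only the stimulated control libraries were low. The changes were -0.34 ± 0.030 on stimulation of control cells (adjusted p = 1.36e-15) and 0.28 ± 0.031 between the vectors after stimulation (adjusted p = 2.16e-11). The response of Batf3 cells was -0.0012 ± 0.030 (adjusted p = 0.973), and -0.22 (adjusted p = 1.84e-09) with library sizes alone. A copy of Pcna, Pcna-ps2, matches 51.4% of its transcript at 99.2% identity.

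Among the subunits of RFC, which opens PCNA and closes it around DNA, Rfc3 had the largest fall with Batf3 without stimulation. Non-stimulated values were 40.7, 40.6 and 47.6 CPM with control and 26.8, 30.1 and 28.6 CPM with Batf3. Stimulated values were 13.2, 12.8 and 11.3 CPM with control and 16.1, 16.2 and 14.4 CPM with Batf3. Each pair of groups was apart. Rfc3 fell by 0.59 ± 0.068 (adjusted p = 4.74e-11) and rose by 0.32 ± 0.098 (adjusted p = 0.00925), the rise being lost without replicate 3 of stimulated control cells (0.24, adjusted p = 0.0926). Rfc2 and Rfc5 both fell by 0.20 without stimulation (adjusted p = 0.00209 and 0.00164) and rose by 0.25 and 0.42 with it (adjusted p = 0.00601 and 5.9e-06). The Rfc2 rise was lost without replicate 2 of either stimulated group (both 0.20, adjusted p = 0.0619 and 0.0588), and both falls with library sizes alone (-0.12 and -0.13, adjusted p = 0.0651 and 0.0562). Rfc4 rose by 0.67 under stimulation (adjusted p = 1.15e-07). Rfc1, the large subunit, changed by -0.11 and -0.021 (adjusted p = 0.0523 and 0.820). Its non-stimulated call was reached without replicate 1 of non-stimulated control (-0.14, adjusted p = 0.0313) or replicate 3 of stimulated Batf3 cells (-0.11, adjusted p = 0.0317). Exons of Lat2 and Eif4a2 on the other strand overlap 15.1% of the Rfc2 and 12.7% of the Rfc4 exons.

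Of the polymerase genes, Prim1, the catalytic subunit of primase, had the largest rise with Batf3 under stimulation. It held 61.1, 62.6 and 58.9 CPM in non-stimulated control and 58.3, 54.3 and 55.8 CPM in Batf3 libraries. Under stimulation it held 15.8, 15.0 and 16.1 CPM with control and 24.1, 25.4 and 26.7 CPM with Batf3. The Batf3 libraries were slightly low in the first culture and clearly high in the second. Its non-stimulated change of -0.12 ± 0.051 was not called (adjusted p = 0.0638), but was without replicate 3 of non-stimulated control, replicate 1 of non-stimulated Batf3 or replicate 3 of stimulated Batf3 cells (-0.15, -0.15 and -0.12, adjusted p = 0.0392, 0.0431 and 0.0411). The rise under stimulation was 0.70 ± 0.077 (adjusted p = 1.86e-11), and stimulation changed it by -1.96 ± 0.070 and -1.14 ± 0.061 in control and Batf3 cells (adjusted p = 2.56e-36 and 3e-26).

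Pold2, an accessory subunit of polymerase delta (chr11:5872180-5878292, reverse strand), was the only member called higher on stimulation in control cells. Non-stimulated libraries held 52.3, 51.8 and 49.6 CPM with control and 44.8, 39.0 and 40.9 CPM with Batf3. Stimulated ones held 80.1, 77.5 and 85.8 CPM with control and 72.2, 72.0 and 79.1 CPM with Batf3. Both stimulated groups were above both non-stimulated ones, and the vectors overlapped only after stimulation. Pold2 rose on stimulation by 0.66 ± 0.052 in control and 0.84 ± 0.054 in Batf3 cells (adjusted p = 3.7e-18 and 3.76e-22). With Batf3 it fell by 0.30 ± 0.056 without stimulation (adjusted p = 8.09e-06) and changed by -0.12 ± 0.050 with it, which was not called (adjusted p = 0.0528). That call was reached with no filter, with another scaling (RLE) and without any non-stimulated library, replicate 2 of stimulated control or replicate 3 of stimulated Batf3 cells, at -0.13 to -0.17. Its lowest adjusted p was 0.00856, at -0.17, without replicate 3 of stimulated Batf3 cells. The interaction was 0.18 (adjusted p = 0.0854), and 0.23 (adjusted p = 0.0261) without replicate 1 of non-stimulated Batf3 cells.

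The catalytic subunit of polymerase delta, Pold1, fell by 0.23 and rose by 0.29 with Batf3 (adjusted p = 1.25e-05 and 5.76e-05). Pole, that of polymerase epsilon, changed by 0.041 (adjusted p = 0.538) and rose by 0.62 (adjusted p = 4.68e-13). In polymerase alpha, Pola2 fell by 0.15 (adjusted p = 0.0107) and rose by 0.37 (adjusted p = 2.66e-05). The Pola2 fall was lost with library sizes alone (-0.075, adjusted p = 0.232) and without replicate 1 of non-stimulated control or replicate 1 or 2 of non-stimulated Batf3 cells (-0.11, -0.11 and -0.13, adjusted p = 0.108, 0.0950 and 0.0562). Pola1 rose by 0.26 under stimulation (adjusted p = 0.0246), but not without replicate 1 or 3 of stimulated control (0.24 and 0.21, adjusted p = 0.0745 and 0.129) or replicate 1 or 2 of stimulated Batf3 cells (0.24 and 0.19, adjusted p = 0.0675 and 0.160). Pole2 and Pold3 rose by 0.53 and 0.36 under stimulation (adjusted p = 0.00307 and 3.77e-07), and Prim2 changed by 0.22 (adjusted p = 0.222).

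Rpa1, the large DNA-binding subunit of RPA, had the largest stimulation response of its complex. It stood at 190.4, 203 and 194 CPM in non-stimulated control and 200.2, 213 and 206 CPM in Batf3 libraries. Stimulated values were 29.8, 30.1 and 31.1 CPM with control and 42.0, 40.6 and 44.5 CPM with Batf3. The vectors overlapped without stimulation and were apart with it. Stimulation changed Rpa1 by -2.69 ± 0.049 in control (6.45-fold lower) and -2.28 ± 0.045 in Batf3 cells (adjusted p = 2.72e-52 and 4.89e-50). Batf3 raised it by 0.48 ± 0.056 under stimulation (adjusted p = 1.64e-10). Its change of 0.076 ± 0.035 without stimulation was not called (adjusted p = 0.0788), but was with library sizes alone (0.15, adjusted p = 0.000331) and without replicate 1 of non-stimulated Batf3 or any stimulated library but replicate 3 of Batf3, at 0.097 to 0.10. Rpa2 fell by 0.20 and rose by 0.49 with Batf3 (adjusted p = 0.00333 and 2.5e-08), the fall being lost with library sizes alone (-0.12, adjusted p = 0.0819). Rpa3 was called in neither culture (adjusted p = 0.763 and 0.131), except under stimulation without replicate 2 of the control cells (0.40, adjusted p = 0.0323).

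Lig1, the ligase that seals Okazaki fragments, was among the members most lowered by stimulation. Its non-stimulated values were 109, 113 and 118 CPM with control and 94.2, 91.8 and 101 CPM with Batf3. Stimulated libraries held 15.1, 16.2 and 14.2 CPM with control and 19.9, 21.0 and 21.98 CPM with Batf3. All 4 groups were apart. The response to stimulation was -2.90 ± 0.069 in control (7.46-fold lower) and -2.19 ± 0.062 in Batf3 cells (adjusted p = 2.46e-47 and 5.87e-42), a difference of 0.71 ± 0.092 (adjusted p = 7.78e-09). Fen1, the flap endonuclease that acts before Lig1, was at a low level, with 1.88 ± 0.140, 1.79 ± 0.284, 1.12 ± 0.158 and 1.11 ± 0.200 CPM (control and Batf3 non-stimulated, control and Batf3 stimulated; SD, n = 3). An antisense gene, Gm10143, overlaps 78.8% of its exons, and reads from both cannot be told apart where strand was not used. Fen1 was not called between the vectors (adjusted p = 0.865 and 0.991). Its stimulation calls (-0.75 and -0.68, adjusted p = 0.0161 and 0.0259) were lost without replicate 2 of stimulated control (-0.66, adjusted p = 0.0603) and, in Batf3 cells, without non-stimulated replicate 2 or 3 or stimulated replicate 3 (-0.62, -0.64 and -0.55, adjusted p = 0.0786, 0.0643 and 0.109).

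For dNTP supply, ribonucleotide reductase consists of the large subunit Rrm1 and the small subunit Rrm2, and their levels diverged. Rrm1 held 189.6, 191 and 187 CPM in non-stimulated control and 189, 197 and 199 CPM in Batf3 libraries. In stimulated cells it held 58.6, 59.8 and 65.3 CPM with control and 88.9, 87.2 and 91.7 CPM with Batf3. Its vectors overlapped without stimulation (0.044 ± 0.035, adjusted p = 0.335) and were apart with it (0.54 ± 0.044, adjusted p = 3.37e-16). With library sizes alone the non-stimulated difference was called (0.12, adjusted p = 0.00435).

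Rrm2 stood at 188, 184 and 179.8 CPM in non-stimulated control and at 254, 253 and 253 CPM in Batf3 libraries. Stimulated control libraries held 27.2, 26.7 and 25.97 CPM and Batf3 libraries 44.4, 44.5 and 45.4 CPM. Batf3 was high in both cultures. Rrm2 rose by 0.46 ± 0.033 without stimulation (37.7%, adjusted p = 1.4e-18) and by 0.75 ± 0.056 with it (68.2%, adjusted p = 2.52e-18). Stimulation changed it by -2.79 ± 0.048 in control and -2.50 ± 0.041 in Batf3 cells (adjusted p = 7.4e-54 and 4.19e-54).

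Tyms, thymidylate synthase, held 31.4, 33.1 and 33.9 CPM in non-stimulated control and 36.5, 36.0 and 37.5 CPM in Batf3 libraries. Its stimulated values were 9.59, 14.02 and 11.7 CPM with control and 15.4, 16.8 and 16.1 CPM with Batf3. Batf3 libraries were the higher ones in both cultures without overlap. The difference was called under stimulation (0.45 ± 0.099, adjusted p = 0.000197). Without stimulation it was 0.16 ± 0.068 (adjusted p = 0.0521), and was called without any one of the stimulated libraries (0.16 to 0.19), with RLE scaling (0.16, adjusted p = 0.0490), with no filter (0.18, adjusted p = 0.0425) and with library sizes alone (0.24, adjusted p = 0.00376). The Tyms interaction was not called (0.29, adjusted p = 0.0766), except without replicate 2 of stimulated control (0.40, adjusted p = 0.0194). Dut, which removes dUTP, fell by 0.18 and rose by 0.35 with Batf3 (adjusted p = 0.000681 and 7.67e-08). The salvage enzyme Tk1 was not called between the vectors (0.032 and 0.21, adjusted p = 0.721 and 0.0854), though under stimulation it was with library sizes alone (0.25, adjusted p = 0.0314).

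In chromatin assembly, Asf1b, a chaperone that hands new histones H3 and H4 to the assembly machinery, had the largest rises of the 48 members. Non-stimulated libraries held 57.3, 60.6 and 59.2 CPM with control and 80.8, 83.2 and 81.4 CPM with Batf3. Stimulated ones held 6.93, 8.54 and 7.77 CPM with control and 12.6, 13.9 and 14.2 CPM with Batf3. As for Rrm2, Batf3 was high in both cultures. The rises were 0.47 ± 0.049 and 0.81 ± 0.10 (adjusted p = 2.82e-12 and 1.19e-09). Stimulation changed Asf1b by -2.93 ± 0.089 in control cells, the lowest value of all members (7.62-fold lower), and by -2.59 ± 0.071 in Batf3 cells (adjusted p = 2.72e-42 and 2.17e-43). Its interaction of 0.34 ± 0.11 (adjusted p = 0.0229) was lost without replicate 1 or 3 of stimulated control (0.23 and 0.31, adjusted p = 0.221 and 0.0967) and without replicate 2 or 3 of stimulated Batf3 cells (0.29 and 0.31, adjusted p = 0.104 and 0.0607). The subunits of chromatin assembly factor 1 moved otherwise. Chaf1b fell by 0.24 and rose by 0.39 (adjusted p = 0.00193 and 0.00637), the rise being lost without replicate 3 of stimulated control or replicate 2 of stimulated Batf3 cells (0.29 and 0.32, adjusted p = 0.0812 and 0.0562). Chaf1a changed by -0.065 (adjusted p = 0.360) and rose by 0.59 (adjusted p = 4.66e-09). Exons of Ubxn6 on the other strand overlap 52.5% of the Chaf1a exons.

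Clspn, the checkpoint mediator that links stalled forks to Chk1, was the remaining member that rose in both cultures. It held 66.0, 66.7 and 66.1 CPM in non-stimulated control and 77.3, 82.4 and 85.2 CPM in Batf3 libraries. In stimulated cells it held 9.59, 9.07 and 7.92 CPM with control and 13.8, 15.4 and 11.7 CPM with Batf3. No pair of groups overlapped. It rose by 0.30 ± 0.051 and 0.62 ± 0.10 (adjusted p = 1.6e-06 and 1.85e-06). The interaction of 0.32 ± 0.12 (adjusted p = 0.0408) was the least stable of those called. It was lost without replicate 1 or 2 of non-stimulated control, any stimulated control library, replicate 1 of non-stimulated Batf3 or replicate 1 or 2 of stimulated Batf3 cells, from 0.19 (adjusted p = 0.339) to 0.34 (adjusted p = 0.0555). By contrast Timeless and Tipin, partners in the fork protection complex, both fell without stimulation (-0.43 and -0.35, adjusted p = 2.36e-10 and 5.05e-08). They rose with it by 0.47 and 0.49 (adjusted p = 6.71e-08 and 3.96e-10). Tipin in Batf3 cells did not pass the test for stimulation (-0.038, adjusted p = 0.508), but with library sizes alone it was lower (-0.25, adjusted p = 2.52e-05).

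Dtl, the substrate receptor of the ubiquitin ligase that removes Cdt1 in S phase, held 61.3, 65.4 and 59.6 CPM in non-stimulated control and 46.1, 47.7 and 50.4 CPM in Batf3 libraries. Stimulated values were 20.9, 23.6 and 24.6 CPM with control and 33.6, 32.6 and 27.1 CPM with Batf3. The vectors were apart in each culture, low with Batf3 in the first and high in the second. Dtl fell by 0.37 ± 0.057 (adjusted p = 2.78e-07) and rose by 0.43 ± 0.076 (adjusted p = 4.4e-06).

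Other genes of the pathway, from lists chosen with results known, were counted in the same fits. Of 36 other replication factors, 10 fell (27.8%) and 2 rose (5.56%) with Batf3 without stimulation, against 23% and 16.3% of all tested genes, with a median of -0.066. The share that fell was near that of all genes. The ORC subunit Orc2 fell by 0.29 (adjusted p = 3.19e-05) and the topoisomerase Top1 by 0.28 (adjusted p = 1.28e-08). Ticrr, which helps to load Cdc45, rose by 0.17 (adjusted p = 0.0139). Under stimulation 14 rose (38.9%) and 2 fell, against 14.8% and 14.6% of all genes, with a median of 0.16. Among them the polymerase alpha partner Wdhd1 rose by 0.69 and the Cdt1 inhibitor Gmnn by 0.65 (adjusted p = 1.16e-15 and 6.73e-08), while Orc4 fell by 0.32 (adjusted p = 4.39e-05). Shares of called genes were thus smaller in this list than among the 48 members in the stimulated comparison, 14 of 36 against 41 of 48; the difference between the lists was not tested.

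Of the 17 E2F and Rb family regulators, including Myc, 7 rose (41.2%) and 5 fell (29.4%) with Batf3 without stimulation, against 16.3% and 23% of all tested genes. E2f1, an activator of replication genes, stood at 31.2 and 21.7 CPM in non-stimulated control and Batf3 cells and fell by 0.52 (adjusted p = 6.71e-08). In stimulated cells it stood at 12.04 and 16.6 CPM and rose by 0.46 (adjusted p = 0.000193), with an interaction of 0.98 (adjusted p = 5.88e-09). E2f2 rose in both cultures, by 0.79 and 0.83 (adjusted p = 2.71e-25 and 9.01e-08). So did E2f8, an atypical repressor, by 0.52 and 0.86 (adjusted p = 1.83e-11 and 9.12e-10). The largest rise of the list without stimulation was that of E2f7, from 15.0 CPM in control to 26.1 CPM in Batf3 cells (0.80). Under stimulation it was that of Rbl2, of the Rb family, from 7.44 CPM in control to 15.0 CPM in Batf3 cells (1.01). Without stimulation Rbl2 stood at 55.8 CPM in control and 79.4 CPM in Batf3 cells. Myc fell by 0.48 without stimulation (adjusted p = 1.87e-22) and by 0.078 with it (adjusted p = 0.0147). Under stimulation 9 of the 17 rose and 2 fell, where 14.8% and 14.6% of all genes did.

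Of 38 mitosis genes, 37 rose with Batf3 in the non-stimulated cultures, with a median of 0.37, where 16.3% of all tested genes and 4 of the 48 replication genes rose. Mki67, a marker of cycling cells, stood at 454 and 772 CPM there. Under stimulation 37 of them rose, with a median of 0.60, against 14.8% of all genes. All 38 fell on stimulation with either vector, with medians of -2.34 and -2.08. Of all tested genes 40.7% fell on stimulation with the control vector and 41.4% with the Batf3 vector. The interaction was called in 16 of the 38, against 40 of the 48 replication genes and 14.6% of all genes in that direction. It was not particular to the 48 members. It was called higher in 18 and lower in 2 of the 36 other replication factors. In the 37 other nucleotide synthesis and salvage genes it was called higher in 23 and lower in 0, and in the 8 CD8 T-cell markers higher in 7 and lower in 0. Differences between the lists were not tested.

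**Figure D5:**
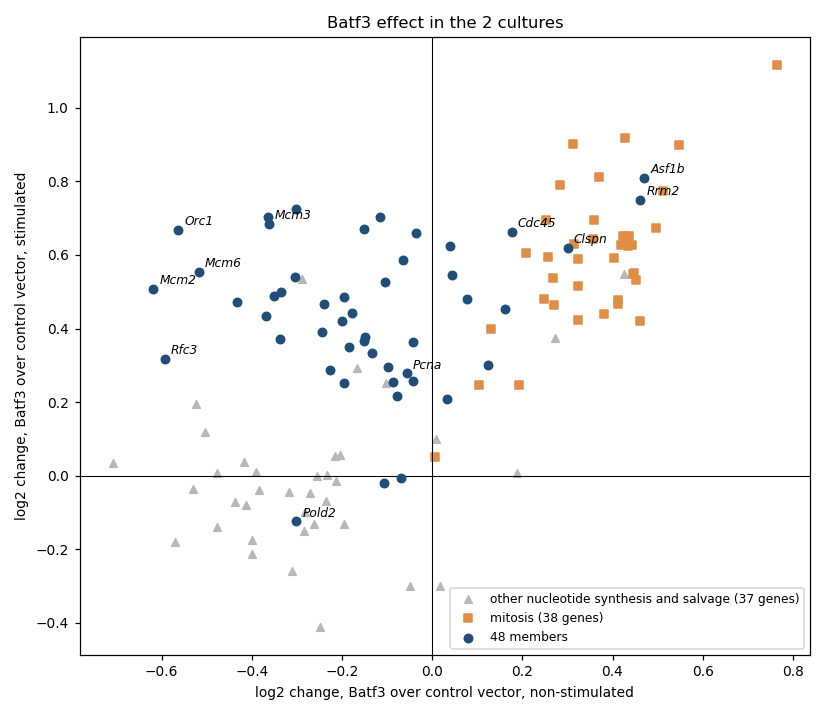
Batf3 effect (log2 change over control vector) in non-stimulated cells on the horizontal and in stimulated cells on the vertical axis, for the 48 replication genes (circles), 38 mitosis genes (squares) and 37 other nucleotide synthesis and salvage genes (triangles). All but 3 of the replication genes (Pold2, Rfc1 and Fen1) lie in the upper quadrants, 23 of them called in the upper left, while the mitosis genes lie in the upper right and most triangles lie left of 0.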

How the data were processed

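RNA from 12 libraries (3 in each of 4 groups) was sequenced after poly-A selection with a stranded kit, per the labels' protocols. The deposited table holds raw counts per gene made by the authors with STAR 2.7 and featureCounts on GRCm38, per the submitters' processing notes. Which annotation was counted, whether strand was used and how reads with several matches were treated is not given in the sources used here. Genes were kept by edgeR's filterByExpr (minimum count 10, minimum total 15) and scaled by TMM. One model over all 12 libraries (8 residual degrees of freedom) was fitted with edgeR 4.0.16 in R 4.3.3 and tested by its quasi-likelihood test, with Benjamini-Hochberg adjustment over all genes tested and a threshold of 0.05. Gene models were GENCODE M21. Alternatives were library sizes alone, RLE size factors, DESeq2 1.42.0, no filter, a replicate block and leaving out each library. All 12 pairs of libraries within groups differed by more than counting noise. The members and lists were chosen with earlier results of these data known. Values per library are given for the 3 largest rises and falls of each comparison at 10 CPM or more, the largest change of each role, members called against the majority, and Mcm2 to Mcm7, Pcna, Rrm1, Rrm2, Cdc6, Orc1 and Tyms. Of other lists up to 2 genes a direction and comparison are named, with E2f1, Myc and Mki67.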

Additional observations from a re-analysis of the deposited data

Results flagged for a closer look

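The effect of the Batf3 vector differed between the cultures in 40 of the 48 replication genes, by the test of the difference itself (edgeR's interaction term, Benjamini-Hochberg adjusted over 15702 genes; 14.6% of all genes were called in this direction). Each value is the Batf3 effect in stimulated minus that in non-stimulated cells, as a log2 difference. In helicase loading the differences were Orc1 1.23, Orc6 0.47, Cdc6 0.62, Cdt1 0.53, Mcm2 1.13, Mcm3 1.05, Mcm4 0.71, Mcm5 0.83, Mcm6 1.07 and Mcm7 0.84. In helicase activation they were Mcm10 0.70, Cdc45 0.49, Gins1 1.07, Gins2 1.03 and Gins4 0.39. For the clamp and its loader they were Pcna 0.33, Rfc2 0.45, Rfc3 0.91, Rfc4 0.82 and Rfc5 0.62. For the polymerases and primase they were Pola1 0.34, Pola2 0.52, Prim1 0.82, Pole 0.58, Pole2 0.63, Pold1 0.51 and Pold3 0.41. Single-strand binding and ligation gave Rpa1 0.41, Rpa2 0.68 and Lig1 0.71, and dNTP supply gave Rrm1 0.50, Rrm2 0.29 and Dut 0.53. Chromatin assembly, fork protection and licensing control gave Chaf1a 0.65, Chaf1b 0.64, Asf1b 0.34, Clspn 0.32, Timeless 0.90, Tipin 0.84 and Dtl 0.80. Single values that stand apart within a group were not looked for in groups of 3 libraries.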

How the results depend on the processing

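Over 240 log2 changes of the members and 17 alternatives, 3945 of 4079 values kept their direction and side of the threshold, 69 lost and 43 gained the call, and 22, none of them called, changed sign. Calls held under all alternatives in 19 of 28 members for the Batf3 effect without stimulation, 36 of 41 with it, 46 of 47 and 44 of 45 for stimulation in control and Batf3 cells, and 37 of 40 for the interaction. With library sizes alone, 8 members rose with Batf3 without stimulation (4 with TMM), 2397 of all genes fell there (3615), and the members' medians were -0.075 and 0.51 for Batf3, -1.68 and -1.04 for stimulation and 0.53 for the interaction. RLE size factors and testing without a filter each gave 1 member lower with Batf3 under stimulation (Pold2, 0 in the main test). Without a filter the members' medians were 0.43 for Batf3 under stimulation, -0.87 for stimulation of Batf3 cells and 0.52 for the interaction, and 1524 of all genes had a higher interaction (2296 with the filter) and 1107 a lower one (954), the cause of which was not tested. Leaving out single libraries gave medians of -0.18 to -0.12 and 0.43 to 0.48 for Batf3, -1.51 to -1.47 and -0.86 to -0.82 for stimulation and 0.51 to 0.58 for the interaction, and 0 to 1 members lower with Batf3 under stimulation. Over all tested genes, the median for Batf3 without stimulation was -0.024 in the main test. It was 0.0041 to 0.0047 when a stimulated library other than replicate 3 of Batf3 was left out. With any other library left out it was -0.026 to -0.023. MCM spans with merged exons, chosen after seeing the data, were 2.69, 2.88, 3.13 and 3.11 against 1.50, 1.59, 2.31 and 2.25. For Batf3 without stimulation the sign changed with library sizes alone in Mcm10 (0.040), Pcna (0.019), Pold3 (0.032), Rpa3 (0.032), Fen1 (0.0056) and Chaf1a (0.010), and with stimulation in Rfc1 (0.025) and Fen1 (0.039). It also changed when single libraries were left out. For Batf3 without stimulation the values then ran from -0.071 to 0.024 in Mcm10, from -0.016 to 0.077 in Pole, from -0.10 to 0.037 in Rpa3, from -0.15 to 0.056 in Fen1 and from -0.015 to 0.098 in Tk1. They ran from -0.11 to 0.13 in Fen1 for Batf3 with stimulation, from -0.050 to 0.014 in Pcna for stimulation of Batf3 cells, and from -0.073 to 0.20 in Fen1 for the interaction. The cause was not tested. Same-numbered libraries did not deviate together (r of -0.138 to 0.0735 over 18 pairs, 0 of them over 0.1). This gave no sign that the numbers pair them, but cannot exclude it, since a weak shared factor would not show. A replicate block left all 240 values on their side of the threshold, with 24 and 41 members lower and higher for Batf3 without and with stimulation. At this depth a low gene such as Fen1 gave wide errors (SE 0.25 to 0.42).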

Other observations

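Most genes that make and salvage nucleotides outside the 48 members fell with Batf3 without stimulation. Of 37 such genes, 30 fell and 2 rose there, against 23% and 16.3% of all tested genes, with a median of -0.28. Umps, which completes pyrimidine synthesis, fell from 67.2 to 41.1 CPM (-0.71, adjusted p = 9.78e-20), and Ppat, the first enzyme of purine synthesis, fell by 0.53 (adjusted p = 2.92e-13). The 2 that rose were Ctps2, a CTP synthase (0.43, adjusted p = 2.1e-10), and the salvage kinase Dck (0.27, adjusted p = 5.3e-06). Under stimulation 8 rose and 8 fell with Batf3, against 14.8% and 14.6% of all genes, with a median of -0.037. Cmpk1, a kinase of pyrimidine monophosphates, fell by 0.41 (adjusted p = 2.52e-07).

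Most of these genes were higher in the stimulated than in the non-stimulated cultures, while most replication genes were lower. In control cells 25 of the 37 rose and 10 fell (39.6% and 40.7% of all genes did), with a median of 0.80. In Batf3 cells 26 rose and 8 fell (41.2% and 41.4% of all genes), with a median of 1.10. Mthfd2, a mitochondrial folate enzyme, went from 68.3 to 452 CPM in control cells (2.73, adjusted p = 1.96e-59). Samhd1, which degrades dNTPs, went from 2418 to 76.4 CPM (-4.98, adjusted p = 1.92e-76). Of 15 tested cyclins, kinases and inhibitors of the G1 to S transition, 7 rose (46.7%) and 5 fell (33.3%) with Batf3 without stimulation, against 16.3% and 23% of all tested genes. With stimulation 9 rose and 2 fell, against 14.8% and 14.6%. Among them Cdc25a, a phosphatase that activates Cdk2, fell by 0.50 without stimulation (adjusted p = 5.89e-11), and Cdkn1a, a kinase inhibitor, fell by 0.40 with it (adjusted p = 2e-16). Without stimulation Cdkn1a stood higher with Batf3, at 149 against 129 CPM. Of the inhibitors tested it alone had a lower mean with Batf3 under stimulation. Cdkn1b, Cdkn2c and Cdkn2d stood at 4.04, 2.34 and 6.25 CPM in stimulated control and at 5.58, 3.80 and 8.40 CPM in stimulated Batf3 cells. The cyclin Ccnd1 stood at 25.4 CPM in stimulated control and 51.8 CPM in stimulated Batf3 cells.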
